A study of Mus musculus with 6 samples.

Results

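The C1q and lipid-associated macrophage genes were followed in RNA-seq libraries of mouse T cells taken from co-culture with ID8, a line of mouse ovarian cancer cells. The set holds 10 genes: C1qa, C1qb, C1qc, Gpnmb, Trem2, Tyrobp, Apoe, Spp1, Mmp12 and Cd63. They were taken by gene name from a table of 54532 genes. C1qb and Gpnmb were put in the set because their values were higher after cisplatin in these same libraries, so both are described below with no test. The other 8 genes were added because they are known to be expressed together with C1qb and Gpnmb in macrophages. All 10 were among the 15874 genes that entered the test, whose FPKM averaged 0.5 or more across the 6 libraries. C1qa and Trem2 passed this filter only through the cisplatin group, since their control means lay under it.

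In the cisplatin group, the T cells met ID8 cells that had been pretreated with 40 µM cisplatin, and in the control group the ID8 cells had received PBS. Each group had 3 libraries, numbered 1 to 3. Per the study's methods, the T cells of both groups came from the spleens of C57BL/6 mice aged 6 to 8 weeks, were isolated with a pan T-cell kit, were kept with IL-2 and were activated with beads against CD3 and CD28 before co-culture. The length of the co-culture and how T cells were parted from ID8 cells afterwards are not given in the sources used here. The labels name only ID8 cells and T cells in these cultures. The labels do not say that the libraries came from separate animals or cultures, so p-values measure only the spread between these samples, which may be technical.

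C1q is the recognition molecule of the classical complement pathway. It is assembled from the A, B and C chains, binds antibody complexes and dying cells, and is made mainly by macrophages rather than by the liver. TREM2 is a lipid-sensing receptor that signals through the adaptor TYROBP, also called DAP12. Macrophages that take up much lipid or cell debris, in fat, in plaques and in tumours, switch on TREM2, APOE, GPNMB, SPP1, CD63 and the elastase MMP12 as a group. Several of these genes are not restricted to macrophages: Tyrobp is also expressed in natural killer cells, Spp1 in activated T cells and epithelial tumour cells, and Cd63 in most cell types.

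The libraries held 30606569 to 32169496 reads on genes, and all 24 T-cell marker genes were expressed, with a summed level of 3232 to 3303 FPKM in the cisplatin libraries and 2042 to 2168 in the controls. FPKM is the number of sequenced fragments scaled by gene length and by library size. Over all tested genes, 653 were called higher after cisplatin, a background of 4.11%, and 2034 were called lower, 12.8%. A gene was called where limma gave an adjusted p under 0.05 together with a 2-fold or larger change. Under quantile normalization these counts were 979 and 1790. The 20 marker genes of ID8 tumour cells included 16 that were tested, of which 14 fell, and their summed level was 395 FPKM in the cisplatin libraries against 1775 to 1859 in the controls. Krt19, a keratin, fell most, from 646 to 52.9 FPKM (log2 fold change -3.61). Fewer cells of a type and less RNA per cell cannot be told apart in such bulk libraries.

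Of the 10 genes, 8 were higher and 2 were lower in the cisplatin group, and in none did the groups overlap. Groups that do not overlap were common here, at 31.9% of tested genes in the higher direction and 32.3% in the lower. Among the 8 genes not chosen by their values, C1qa, C1qc, Trem2, Apoe and Mmp12 were called higher, and Spp1 and Cd63 were called lower. Tyrobp passed the adjusted p but stayed just under 2-fold. When libraries were centred on the T-cell markers, only C1qa and C1qc among these 8 were called higher, and with 1 rather than 0.1 FPKM added before taking logs only C1qa and Mmp12 were. The median log2 fold change of these 8 genes was 1.12, beside 0.03 over all tested genes. C1qa and Trem2 could pass the filter only by being higher after cisplatin; among the other 6 genes, 3 were called higher and 2 lower, with a median of 0.99.

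**Figure D1:**
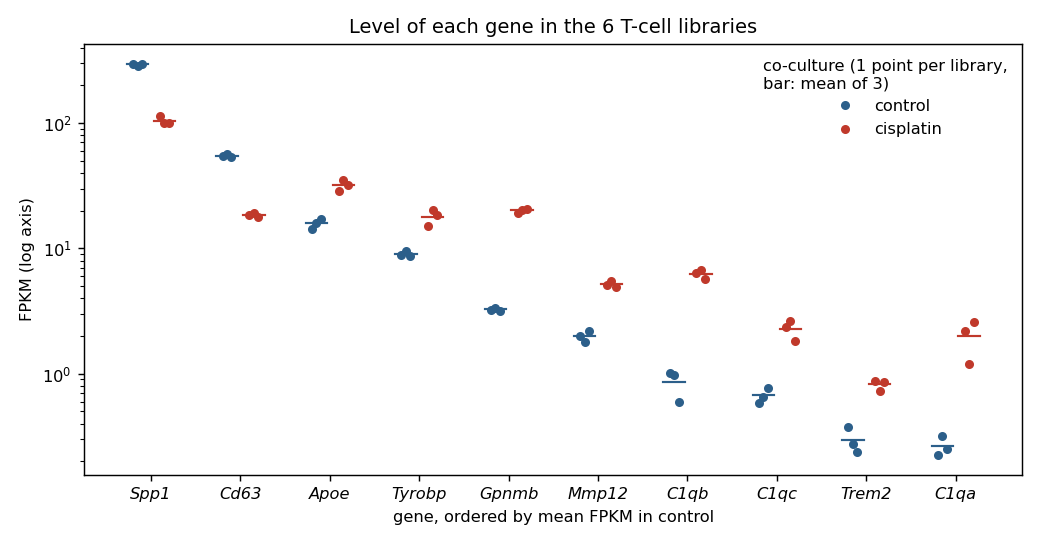
FPKM of each gene on a log axis, with 1 point per library and a bar at the mean of 3 libraries, for the control (blue) and cisplatin (red) co-cultures. Genes are ordered by their control mean, from Spp1 at 293 FPKM to C1qa at 0.265 FPKM, and only Spp1 and Cd63 lie lower in the cisplatin group.

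The genes of the 3 C1q chains lie side by side on the minus strand of chromosome 4 (GRCm38 coordinates of the GENCODE annotation, equal to those in the table). C1qb (ENSMUSG00000036905) spans chr4:136880129-136886187, C1qc (ENSMUSG00000036896) spans chr4:136889804-136893065, and C1qa (ENSMUSG00000036887) spans chr4:136895917-136898803. The gaps between them are 3616 and 2851 bases. The sequences upstream of C1qb and C1qc are shown because these neighbouring genes were both higher in the cisplatin libraries. They come from RefSeq promoter windows on GRCm38.p6, which were found for 8 of the 10 genes, and are written 5′ to 3′ on the minus strand up to the gene's start. That of C1qb is chr4:136886201-136886450, and that of C1qc is the stretch chr4:136893066-136893164, which lies outside the annotated gene. Capitals mark matches, on either strand, to TCANGTG, the site of the MITF and TFE factors, TGCTGA, part of a MAF site, or GAGGAAG, a PU.1 site.
C1qb: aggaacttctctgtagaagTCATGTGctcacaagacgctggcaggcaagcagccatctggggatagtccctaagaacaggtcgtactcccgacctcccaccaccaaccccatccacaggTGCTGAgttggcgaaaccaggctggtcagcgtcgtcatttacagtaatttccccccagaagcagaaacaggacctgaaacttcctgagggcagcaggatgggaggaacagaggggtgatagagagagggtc
C1qc: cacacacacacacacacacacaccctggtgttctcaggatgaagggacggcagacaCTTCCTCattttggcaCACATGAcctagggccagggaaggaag
C1qb held TCANGTG and TGCTGA, starting 231 and 131 bases before the window's transcript start, and C1qc held GAGGAAG at 194 and TCANGTG at 178. These letters occurred in 12.2% (TCANGTG), 16.1% (TGCTGA) and 10.6% (GAGGAAG) of all 32851 windows of 250 bases, so a match is a description of the sequence and not of binding.

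The transcripts of all 3 C1q chains were low in the controls and several-fold higher after co-culture with cisplatin-pretreated ID8 cells. C1qb stood at 6.39, 6.77 and 5.67 FPKM in cisplatin libraries 1 to 3 and at 1.01, 0.981 and 0.599 in control libraries 1 to 3. All cisplatin libraries were thus far above all controls. The means were 6.28 ± 0.557 and 0.863 ± 0.229 FPKM (SD, n = 3), a log2 fold change of 2.75 (SE 0.20), and they rested on 669 reads against 85. This difference is part of why C1qb was chosen and carries no test.

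C1qa, the A chain, stood at 2.20, 1.19 and 2.61 FPKM in the cisplatin libraries and at 0.224, 0.321 and 0.251 in the controls. Cisplatin library 2 was the lowest of its group but still well above every control. The log2 fold change was 2.46 (SE 0.33, adjusted p = 7.6e-04, limma), and 1.21 with a pseudocount of 1. C1qa passed the filter only through the cisplatin group, so its direction was not free and the p-value is no independent support for it. Because the controls held only 7, 10 and 8 reads, the ratio of reads per library read, 7.97, had a 95% exact interval of 5.25 to 12.6 that covers counting error only.

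C1qc, the C chain, stood at 2.35, 2.63 and 1.82 FPKM in the cisplatin libraries and at 0.586, 0.656 and 0.776 in the controls. The groups did not overlap, although the rise was smaller than that of the B chain. Its log2 fold change was 1.61 (SE 0.19, adjusted p = 4.3e-04), from 429 reads against 118. Summed over the chains, the level was 10.9, 10.6 and 10.1 FPKM in the cisplatin libraries and 1.82, 1.96 and 1.63 in the controls.

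The chains are used in equal numbers in the protein, so their ratios within a library were also compared. C1qc per C1qb was 0.368, 0.388 and 0.321 in the cisplatin libraries and 0.581, 0.669 and 1.30 in the controls, lower in each cisplatin library than in any control. C1qa per C1qb was 0.344, 0.176 and 0.460 against 0.222, 0.327 and 0.418, and the groups overlapped. The log2 difference of the C1qa ratio, -0.29, became 0.08 without cisplatin library 2. Both ratios contain C1qb and were not tested. Transcripts of Ephb2 and Epha8, the genes that flank the C1q genes and encode ephrin receptors, were nearly absent, at 0.0308 and 0.0173 FPKM in the cisplatin group and 0.0463 and 0.0234 in the controls.

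Trem2 (ENSMUSG00000023992, chr17:48346401-48354147, plus strand) encodes the receptor and was the lowest of the 10 genes in the cisplatin group. Its levels were 0.881, 0.732 and 0.861 FPKM in the cisplatin libraries and 0.377, 0.276 and 0.237 in the controls. The groups did not overlap, but all values were under 1 FPKM. The log2 fold change was 1.23 (SE 0.29, adjusted p = 0.011), from 399 reads against 133. As with C1qa, Trem2 passed the filter only through the cisplatin group, so the p-value is no independent support for its direction. The fold rested on the pseudocount and the scaling: it was 0.49 with a pseudocount of 1 in place of 0.1, and 0.65 (adjusted p = 0.095) when libraries were centred on the T-cell markers.

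The 250 bases before Trem2, chr17:48346151-48346400 on the plus strand, are shown because they hold matches to both the PU.1 letters and TGANTCA, the AP-1 site, which occurred in 6.75% of all windows.
Trem2: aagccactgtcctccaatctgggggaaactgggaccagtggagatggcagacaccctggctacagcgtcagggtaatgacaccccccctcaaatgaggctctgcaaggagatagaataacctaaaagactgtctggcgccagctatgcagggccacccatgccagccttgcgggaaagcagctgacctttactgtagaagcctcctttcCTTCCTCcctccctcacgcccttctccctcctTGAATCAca
Its GAGGAAG match, on the opposite strand, started 41 bases and its TGANTCA match 9 bases before the gene's start. GAGGAAG occurred in the windows of 5 of the 8 genes with a window, which were C1qc, Trem2, Spp1, Mmp12 and Cd63, so both genes that rose and genes that fell held it.

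Tyrobp (ENSMUSG00000030579, chr7:30413760-30417585, plus strand), the adaptor through which TREM2 signals, was expressed at a far higher level. It stood at 15.1, 20.3 and 18.4 FPKM in the cisplatin libraries and at 8.79, 9.60 and 8.70 in the controls. All cisplatin libraries were above all controls, with a log2 fold change of 0.97 (SE 0.11, adjusted p = 3.4e-04), 1.98-fold by the means. It crossed the 2-fold threshold without cisplatin library 1 (1.09) or without control library 2 (1.01). Trem2 per Tyrobp was 0.0585, 0.0361 and 0.0469 in the cisplatin libraries and 0.0429, 0.0288 and 0.0273 in the controls. These ratios overlapped (log2 difference 0.26, two-sided exact permutation p = 0.3), and with a pseudocount of 1 the difference was -0.41. The smallest p that 3 libraries against 3 allow is 0.1.

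Hcst, which encodes DAP10, a related adaptor, lies 126 bases from Tyrobp on the opposite strand. It was 24.0 ± 2.18 FPKM in the cisplatin group and 18.7 ± 0.641 in the controls, a log2 fold change of 0.35 (SE 0.07, adjusted p = 0.0045). Whether counting used the strand is not given in the sources used here.

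Gpnmb (ENSMUSG00000029816, chr6:49036546-49070929, plus strand) encodes a membrane glycoprotein of lysosome-rich macrophages and pigment cells, where MITF and TFE factors are known to drive it. Its levels were 19.3, 20.4 and 20.7 FPKM in the cisplatin libraries and 3.25, 3.36 and 3.16 in the controls. The libraries of each group lay close together, with a coefficient of variation of 3.58% in the cisplatin group, and the groups were far apart. The log2 fold change was 2.59 (SE 0.05), from 12847 reads against 1923, and it carries no test because Gpnmb was chosen by it. The RefSeq window before Gpnmb, chr6:49036268-49036517 on the plus strand, is shown for comparison with C1qb because it has no capitals: none of the motifs searched occurred in it.
Gpnmb: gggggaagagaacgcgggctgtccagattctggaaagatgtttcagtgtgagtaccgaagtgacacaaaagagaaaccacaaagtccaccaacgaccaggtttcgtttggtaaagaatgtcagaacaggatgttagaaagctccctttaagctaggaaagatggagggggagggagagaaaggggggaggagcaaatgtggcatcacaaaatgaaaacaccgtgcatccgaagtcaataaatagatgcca
No match says only that these letters are not in this window.

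Apoe (ENSMUSG00000002985, chr7:19696109-19699188, minus strand) encodes apolipoprotein E, which carries cholesterol out of lipid-laden macrophages. It stood at 28.7, 35.3 and 32.3 FPKM in the cisplatin libraries and at 14.4, 15.9 and 17.3 in the controls. The groups did not overlap, and the log2 fold change was 1.01 (SE 0.10, adjusted p = 1.4e-04). The call was at its threshold, since the fold change was 0.94 without cisplatin library 2 and also 0.94 without control library 1. Apoc1, the next gene to the left and a partner of Apoe in lipoproteins, had 8 reads in the cisplatin group and 13 in the controls.

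Mmp12 (ENSMUSG00000049723, chr9:7344381-7369499, plus strand) encodes macrophage elastase. Its levels were 5.11, 5.48 and 4.96 FPKM in the cisplatin libraries and 2.01, 1.79 and 2.19 in the controls. The groups were clearly apart, with a log2 fold change of 1.34 (SE 0.10, adjusted p = 3.7e-05). Of 9 other genes of its cluster on chromosome 9, which encode further matrix metalloproteinases, 3 were tested and none rose. Mmp10 was called lower (log2 fold change -1.48, adjusted p = 0.001), Mmp13 was 2.67 FPKM against 4.68 (-0.80, adjusted p = 0.0036), and Mmp8 did not pass the test (-0.15, adjusted p = 0.43). Mmp1b overlaps Mmp12 on the opposite strand and had no reads.

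Spp1 and Cd63 went the other way. Spp1 (ENSMUSG00000029304, chr5:104435118-104441050, plus strand) encodes osteopontin, a secreted ligand of integrins and CD44, and was the most abundant of the 10 genes in both groups. It stood at 114, 99.6 and 100.2 FPKM in the cisplatin libraries and at 298, 286 and 295 in the controls. Every cisplatin library was below every control, with a log2 fold change of -1.49 (SE 0.06, adjusted p = 1.8e-06). The bases before Spp1, chr5:104434861-104435110 on the plus strand, are shown as those of a gene that fell, with the GAGGAAG match in capitals.
Spp1: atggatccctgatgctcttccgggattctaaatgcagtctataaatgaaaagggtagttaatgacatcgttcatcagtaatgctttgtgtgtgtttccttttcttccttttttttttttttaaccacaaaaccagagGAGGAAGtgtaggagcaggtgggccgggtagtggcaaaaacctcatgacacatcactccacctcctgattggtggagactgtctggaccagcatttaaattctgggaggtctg
Gm42793, a gene model awaiting experimental support on the same strand, overlaps Spp1 and fell from 1.34 ± 0.196 to 0.0654 ± 0.0149 FPKM, so reads in the overlap are of uncertain origin. Pkd2, the next gene to the right, which encodes the channel polycystin-2, fell as well, from 7.82 ± 0.221 to 1.13 ± 0.104 FPKM (log2 fold change -2.69, adjusted p = 1.1e-06).

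Cd63 (ENSMUSG00000025351, chr10:128900989-128912822, plus strand) encodes a tetraspanin of late endosomes, lysosomes and exosomes. Its levels were 18.4, 19.0 and 17.7 FPKM in the cisplatin libraries and 55.0, 56.3 and 53.2 in the controls. The groups were far apart, with a log2 fold change of -1.57 (SE 0.04, adjusted p = 3.6e-07). Against Gpnmb, which is placed with it in lysosomes, the change was steep: Cd63 per Gpnmb was 0.951, 0.934 and 0.855 in the cisplatin libraries and 16.9, 16.8 and 16.9 in the controls. Spp1 per Gpnmb moved likewise, from 91.7, 85.3 and 93.4 in the controls to 5.88, 4.89 and 4.84. Both ratios contain Gpnmb and were not tested.

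**Figure D2:**
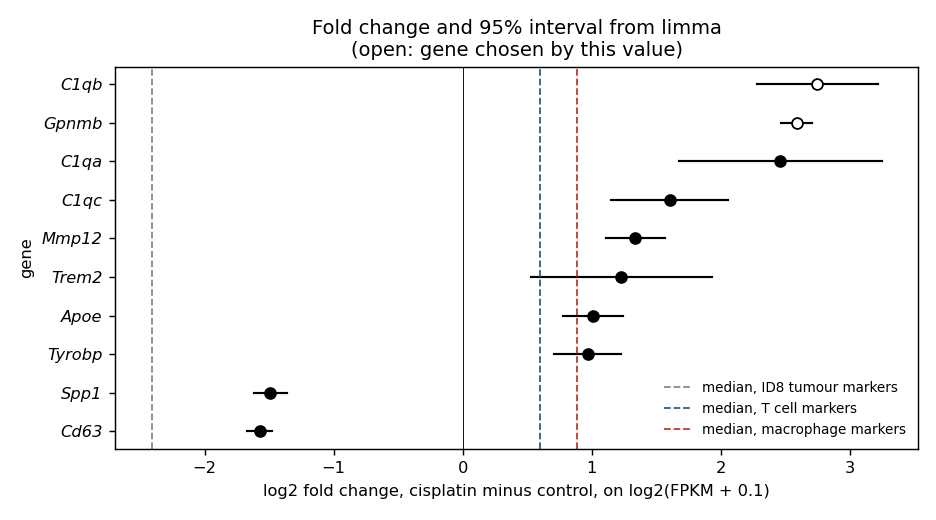
Log2 fold change, cisplatin minus control, of each gene on the log2(FPKM + 0.1) scale with its 95% interval from limma (3 libraries a group). Open points mark C1qb and Gpnmb, which were chosen by these values, and dashed lines give the medians of 3 marker lists, -2.41 for ID8 tumour, 0.60 for T-cell and 0.89 for macrophage markers. Spp1 and Cd63 lie between the ID8 median and 0, and the other 8 genes lie at 0.97 or above.

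The order of the levels changed accordingly. In FPKM, which is per length, the controls ran Spp1, Cd63, Apoe, Tyrobp, Gpnmb, Mmp12, C1qb, C1qc, Trem2 and C1qa from high to low. C1qb overlapped C1qc there, and Trem2 overlapped C1qa. In the cisplatin group Gpnmb moved above Cd63 and Tyrobp by its mean, and C1qb moved above Mmp12. The range of Tyrobp there, 15.1 to 20.3 FPKM, overlapped that of Cd63 and also that of Gpnmb, 19.3 to 20.7 FPKM. C1qc and C1qa overlapped there, and Trem2 came last. Spp1 made up 77.7, 76.3 and 77.3% of the summed FPKM of the 10 genes in the controls and 53.6, 47.1 and 48.8% in the cisplatin libraries. Without Spp1 and Cd63, the sum of the other 8 genes was 80.0, 92.8 and 87.3 FPKM in the cisplatin libraries and 30.6, 32.8 and 33.2 in the controls.

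General macrophage markers were compared with the set next. Of 23 such markers, 13 were tested, 9 rose and 2 fell, and 5 of the rises and 1 fall were called. Their median log2 fold change was 0.89, and the summed level of the list was 327 to 361 FPKM in the cisplatin libraries and 177 to 192 in the controls. Fcgr1, an Fc receptor, rose by a log2 fold change of 1.96 (adjusted p = 9.6e-04) and Lyz2, a lysozyme, by 1.54, from 30.8 to 89.7 FPKM. Csf1r, the receptor on which macrophages depend, rose from 1.51 to 4.0 FPKM (1.35, adjusted p = 1.5e-04), and Ctss, a lysosomal protease that B cells also express, from 79.4 to 165 FPKM (1.05). Adgre1, which encodes F4/80, was the other rise that was called (1.12). Cd68, a lysosomal protein of macrophages, was 24.2 against 24.1 FPKM, and Slc40a1, the iron exporter, was called lower (-1.19). Fcgr1 and Adgre1 passed the filter only through the cisplatin group and Slc40a1 only through the controls; of the other 10 tested markers, 7 rose, 3 of them called, and 1 fell. None of the 23 markers was at 0 reads. Among the markers under the filter, Cd163 had 8 reads in each group, Timd4 7 in the cisplatin group and 12 in the controls, and Spic 9 and 10. All others under the filter had more reads in the cisplatin group. These were Mrc1 (352 against 130), Mertk (307 against 103), Cx3cr1 (150 against 60) and Siglec1 (133 against 96). Chil3 (92 against 15), Ms4a7 (88 against 10) and Marco (42 against 4) went the same way, with no test. The part of macrophages in the levels of the 10 genes was not tested.

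Set against the mean of the tested macrophage markers in the same library, C1qa (1.79), C1qc (0.93), Mmp12 (0.66), Trem2 (0.56) and Apoe (0.34) were higher in the cisplatin group on the log2 scale, each with groups that did not overlap and a two-sided exact permutation p of 0.1, the smallest possible. With a pseudocount of 1 the values were 0.72 for C1qa, 0.46 for C1qc and -0.01 for Trem2. C1qa and Trem2 entered only through their cisplatin levels, which limits what their p-values can show. For Tyrobp the difference was 0.30 and the groups overlapped (exact permutation p = 0.2). Spp1 and Cd63 were lower than these markers, by -2.16 and -2.25 on the log2 scale. C1qb and Gpnmb differed by 2.08 and 1.92, given as a description.

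Against the T-cell markers, all 24 of which rose by a median log2 fold change of 0.60, the values were 1.89 for C1qa, 1.03 for C1qc, 0.65 for Trem2, 0.39 for Tyrobp, 0.43 for Apoe and 0.76 for Mmp12. With a pseudocount of 1 they were 0.65 for C1qa, 0.39 for C1qc, -0.08 for Trem2 and 0.48 for Mmp12. Spp1 and Cd63 differed by -2.07 and -2.15. Against the ID8 markers every gene of the set was higher in the cisplatin group, including Spp1 (0.66) and Cd63 (0.58), whose own levels fell less than those markers did. The mean of the ID8 markers itself changed by -2.15 on the log2 scale. Any gene that rose or fell by less comes out higher, so this direction and its p-value say little about the set. The groups did not overlap in any comparison with the T-cell or ID8 markers. The exact permutation p was 0.1 for each of the 8 genes that were tested, which leaves out C1qb and Gpnmb. Of these 8, C1qa and Trem2 passed the filter only through the cisplatin group.

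**Figure D3:**
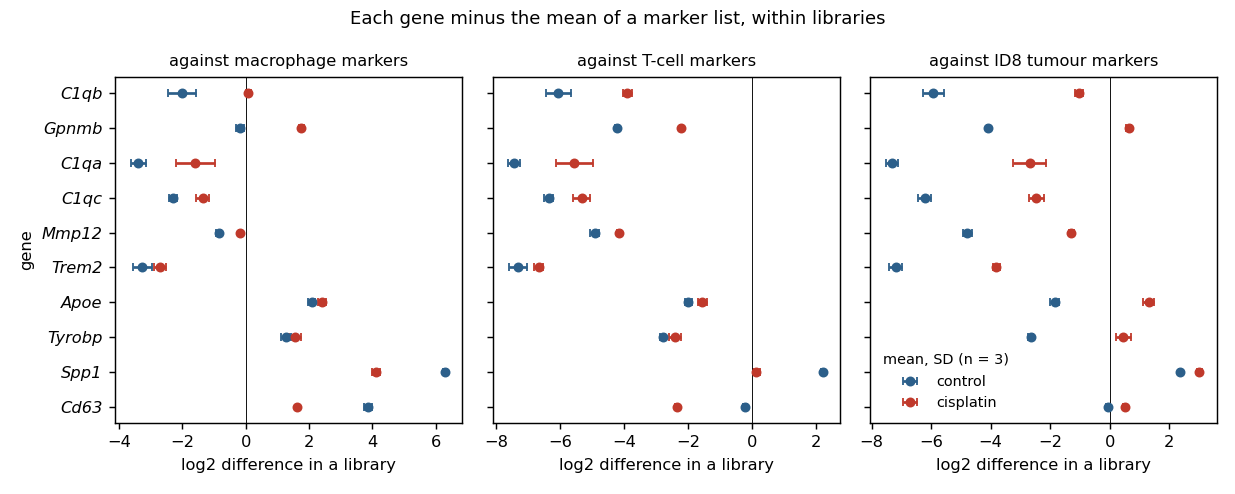
Log2 level of each gene minus the mean log2 level of the tested genes of a marker list in the same library, as mean and SD of 3 libraries, for macrophage (left), T-cell (middle) and ID8 tumour markers (right). Spp1 and Cd63 lie lower after cisplatin than in the controls in the left and middle panels and higher in the right panel, by 0.66 and 0.58.

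Other complement genes were counted next. Of 18 other complement activation genes, 7 were tested, and 6 were called lower and 1 higher. Masp1 and C4b passed the filter only through the controls, and the 11 untested genes, among them C2, C4a and C9, were too low for the filter. C1ra, 1 of the proteases that C1q carries, fell from 27.4 to 3.26 FPKM (log2 fold change -3.04, adjusted p = 1.9e-07), and C1s1, the other, from 251 to 51.7 FPKM (-2.28). C1rl (-3.56), Masp1 (-3.23) and C4b (-2.37) also fell, as did C3, the central component, from 842 to 144 FPKM (-2.55). Cfp, which encodes properdin, made by myeloid cells, rose from 6.28 to 15.2 FPKM (1.26, adjusted p = 3.9e-05). The summed level of the list was 211 to 227 FPKM in the cisplatin libraries and 1104 to 1179 in the controls, and 14 of the 16 tested ID8 markers fell with it. The part of ID8 transcripts in these falls was not tested.

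Among 15 complement regulators and receptors, 12 were tested, 5 rose, 2 of them called, and 3 were called lower. Serping1, the C1 inhibitor, which passed the filter only through the controls, fell (-3.42), as did Cd55 (-1.63). The anaphylatoxin receptors C5ar1 (1.31, adjusted p = 9.0e-04) and C3ar1 (1.06, adjusted p = 4.1e-04) rose. Calr, a C1q-binding chaperone, was 196 against 179 FPKM (0.13, adjusted p = 0.011), and C1qbp did not pass the test (0.16, adjusted p = 0.16).

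Genes of signalling through TYROBP, listed together with related adaptors and receptors, moved mostly upwards. Their median log2 fold change was 0.61, close to the 0.60 of the T-cell markers. Of 20 genes, 14 were tested, 12 rose and none fell, against 27.5% of all tested genes with an adjusted p under 0.05 in the higher direction and 29.0% in the lower. Only 2 were called, Cd300ld (1.55, adjusted p = 0.0055), a myeloid receptor that passed the filter only through the cisplatin group, and Ptpn6 (1.04, adjusted p = 7.3e-07), the phosphatase SHP-1. Pik3cd, a kinase subunit of leukocytes, rose from 96.0 to 154 FPKM (0.68), and Btk, a kinase of B cells and myeloid cells, rose by 0.96. Most of these proteins also serve T-cell or B-cell receptors, and 9 of 10 B-cell markers rose too, by a median of 0.60, with Ighm, the IgM heavy chain, from 1433 to 3220.5 FPKM (1.17). The tenth, Fcer2a, the low-affinity IgE receptor, was called lower (-1.06, adjusted p = 0.0042). The summed level of the B-cell markers was 3577 to 3659 FPKM in the cisplatin libraries and 1661 to 1746 in the controls. Whether they account for part of this was not tested.

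The rest of the lipid-associated macrophage programme was split. Of 26 further genes, 25 were tested, 14 rose, 7 of them called, and 8 fell, 5 of them called, with a median of 0.22. Clec7a, the beta-glucan receptor dectin-1, rose most, from 2.75 to 16.0 FPKM (2.5, adjusted p = 9.1e-07). The other called rises were Cd36 (1.80), a fatty acid and lipoprotein receptor, Atp6v0d2 (1.76), a lysosomal proton pump subunit that passed the filter only through the cisplatin group, Abcg1 (1.63) and Abca1 (1.08), the cholesterol exporters, Fabp5 (1.5), a fatty acid carrier, and Msr1 (1.16), a scavenger receptor. The called falls were Axl (-2.17), a receptor for dying cells, Olr1 (-2.0), Lgals3 (-1.42), Lpl (-1.31) and Cd9 (-1.22). The lysosomal genes with the highest levels, Psap (0.42) and Npc2 (0.20), rose by under 2-fold.

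Receptors and partners of the encoded proteins were counted next. Of 8 tested receptors for SPP1 and GPNMB, 7 fell, 5 of them called, led by Itgb5 (-2.56), the heparan sulphate carrier Sdc4 (-1.88, from 214 to 58.0 FPKM) and Itgav (-1.55). Itga4, the integrin chain of leukocytes, rose (0.83). Of 8 tested lipoprotein receptors and partners of APOE, 5 fell and 1 rose, and Vldlr (-3.46) and Lrp1 (-2.78) were called. Of 13 tested tetraspanins and their partners, 9 fell, 6 of them called, among them Cd151 (-1.94), Tspan8 (-1.88) and Tspan4 (-1.83), while Cd53 (0.51) and Cd37 (0.46), which are restricted to leukocytes, rose. The ID8 markers fell with these genes, and the part of ID8 transcripts in the falls was not tested.

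Of 16 transcription factors that are known to act on these genes, 15 were tested, 5 rose and 7 fell. Spi1, which encodes PU.1, rose by 0.94 and Mitf by 0.71 (adjusted p = 0.031), both under 2-fold. Tfeb (-0.01, adjusted p = 0.91) and Tfe3 (-0.14, adjusted p = 0.13) did not pass the test. The called falls were Cebpa (-2.89), Pparg (-1.88), Cebpb (-1.46), Maf (-1.08) and Bhlhe40 (-1.07).

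**Figure D4:**
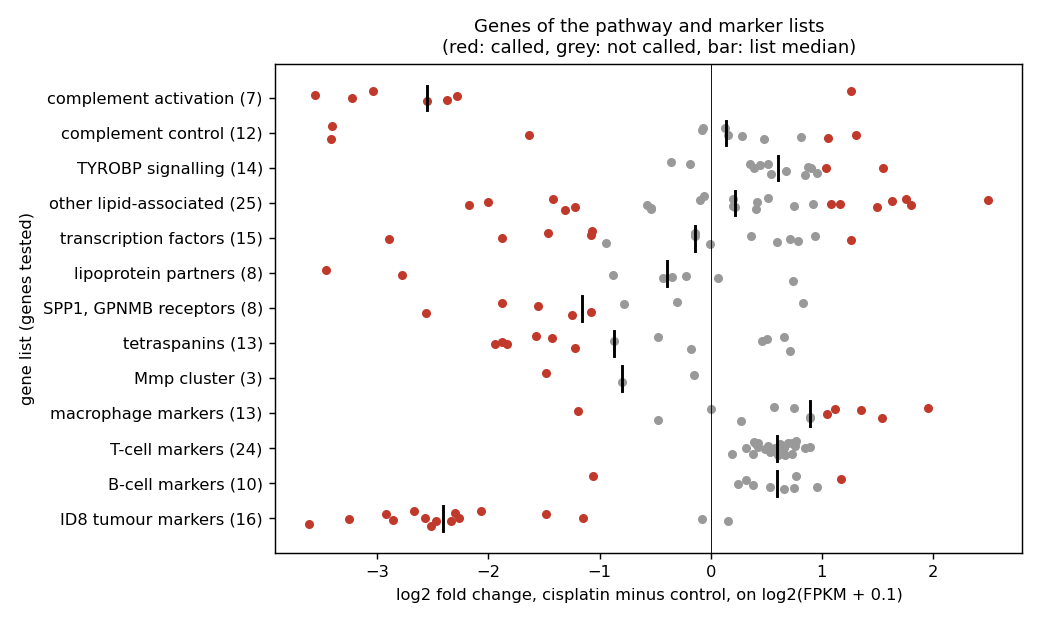
Log2 fold change, cisplatin minus control, of each tested gene in 13 pathway and marker lists, with called genes in red, others in grey and the list median as a bar. Complement activation genes (median -2.55) and ID8 tumour markers (-2.41) lie far to the left, while the macrophage (0.89), T-cell (0.60) and B-cell markers (0.60) lie to the right.

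The genes whose profile over the 6 libraries was closest to Gpnmb, by Euclidean distance of log2 values centred on each gene's mean, were Ccl6 and Clec7a (0.30 each), then C1qb (0.56), Dmbt1 (0.57) and Ighv2-9 (0.70), among 11762 genes that averaged 1 FPKM or more. Ccl6, a chemokine of myeloid cells, was 66.7 ± 2.92 FPKM in the cisplatin group and 12.7 ± 0.322 in the controls. For C1qb the closest were Gpnmb (0.56), Igkv7-33 (0.57), Ccl6 and Clec7a (0.74 each) and Trav13n-4 (0.75). Within the set, C1qa was 1.16 and C1qc 1.61 from C1qb, while Spp1 was 5.23 and Cd63 5.32 from it. With 2 groups of close replicates, this distance mostly reflects the difference in fold change. C1qb and Gpnmb were chosen by their rise, so the nearest genes are largely others with a rise of similar size. Immunoglobulin and T-cell receptor variable segments thus stood beside myeloid genes in these lists, and reads on such segments can be shared between near-identical copies.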

How the data were processed

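Gene-level FPKM values of the 6 libraries were used as deposited. The authors made them from poly-A RNA libraries sequenced on an Illumina system. The submitters' processing notes name fastp, HISAT2 2.0.5, featureCounts 1.5.0-p3 and mm10, whereas the study's methods name LifeScope for alignment and counting. For each library, FPKM times gene length gave whole reads within 0.1 of a read in 100.0% of values, and reads on genes were taken from these.

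The test was limma 3.58.1 (R 4.3.3; lmFit, eBayes with trend) on log2(FPKM + 0.1) over the 15874 genes averaging 0.5 FPKM or more, with group as the only term. This scale shrinks the fold change of genes at low levels. Calls needed a Benjamini-Hochberg adjusted p under 0.05 over all tested genes and 2-fold. "Rose" and "fell" refer to the adjusted p, and "called" to both criteria. No count model was the main test, because the deposited unit is FPKM; voom on the rebuilt reads was an alternative. The fit was also run on simulated data, where 193 of 194 tested genes with a set change were called, and 12 unchanged genes. Rises and falls were drawn there with equal chance, so this check does not cover the excess of falls in these libraries. Ratios within libraries were compared by two-sided exact permutation tests. Intervals on reads cover counting error only.

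Replicate libraries differed by more than sampling noise (chi-square per degree of freedom 5.35 to 6.44). Coordinates and lengths of all 10 genes equalled GENCODE M21. Motifs were searched on both strands of RefSeq windows, 250 bases before each transcript start; TGCTGA and TGANTCA can share the letters TGA.

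The genes and the 20 lists were chosen with earlier results of these data known. In each list, the text names the 3 genes with the largest change among those with an adjusted p under 0.05 and the 2 with the highest level; other list genes were named after their values were seen. Genes next to each of the 10 and the 5 nearest profiles of C1qb and Gpnmb were also named by rule.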

Additional observations from a re-analysis of the deposited data

How the results depend on the processing

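Wherever a gene of the set was tested under the 17 alternatives, its direction stayed, and Spp1 and Cd63 were called lower in all of them (-2.07 to -1.41 and -2.15 to -1.49). Of 557 recomputed values, 516 were counted as unchanged. A tested gene's fold change had to stay called or not called, and an untested value had to move by less than the spread between replicates. For tested ratios and marker differences only the sign had to stay. C1qa against T-cell markers thus counted as unchanged, at 1.89 in the main setting and 0.65 with a pseudocount of 1. Centring on the T-cell markers, which moved the median of all tested genes from 0.03 to -0.55, gave 139 genes higher and 3760 lower (96.4% of calls, against 75.7%), 2 of the 8 genes not chosen by value called higher, and 2.18 for C1qb, 2.01 for Gpnmb, 0.65 for Trem2, 0.43 for Apoe and 0.76 for Mmp12. A pseudocount of 1 gave 311 genes higher, 2 of the 8 genes not chosen by value called higher, and 1.97 for C1qb, 1.21 for C1qa, 0.96 for C1qc, 2.31 for Gpnmb, 0.49 for Trem2 and 0.97 for Apoe. With that pseudocount the ratios were -0.41 for Trem2 to Tyrobp, -3.84 for Cd63 to Gpnmb, -1.0 for Apoe to C1qb and -3.79 for Spp1 to Gpnmb. C1qb, Gpnmb and Trem2 were then 1.47, 1.81 and -0.01 against macrophage markers and 1.40, 1.74 and -0.08 against T-cell markers, and C1qb and Gpnmb 4.02 and 4.36 against ID8 markers. A minimum mean of 5 FPKM left Gpnmb, Tyrobp, Apoe, Spp1 and Cd63 of the set and gave 242 and 903 calls; of the 4 not chosen by value, 1 was called higher. TPM put Apoe at 0.99. Quantile normalization (median of all genes 0.16) gave 979 and 1790 calls (64.6% lower), 2.74 for Gpnmb and 1.08 for Tyrobp. Voom on rebuilt reads (median 0.10) gave 1127 higher and 2423 lower, 2.71 for Gpnmb and 1.06 for Tyrobp. Apart from the tested genes that the filter left, the cause of these shifts was not tested.

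With each library left out in turn, the log2 fold change was 0.94 to 1.09 for Apoe, which lost its call without cisplatin library 2 or control library 1, and 0.88 to 1.09 for Tyrobp, which gained one without cisplatin library 1 or control library 2. The C1qa to C1qb ratio ran from -0.58 to 0.08, and only leaving out cisplatin library 2 changed its sign.

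The replicate numbers did not pair the samples: deviations of same-numbered libraries correlated at 0.02, -0.06 and -0.02 over genes. With the replicate block, 651 genes were higher and 2011 lower, and no call on the set changed. Control reads of C1qa (7 to 10 a library) and Trem2 (36 to 56) limit the precision of their folds.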

Other observations

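Other lists of cell types that a spleen culture could hold gave few tested genes. Of 11 neutrophil genes, 2 were tested, and both were called higher: Mpo, from 0.148 to 1.12 FPKM (log2 fold change 2.36, adjusted p = 0.0023), and Elane, from 0.156 to 1.34 FPKM (2.5, adjusted p = 0.0018). Both encode granule proteins of immature myeloid cells, and both passed the filter on low values only through the cisplatin group, so their direction was set by the filter. Genes of mature neutrophils were nearly absent, with S100a8 at 27 reads in the cisplatin group and 14 in the controls, and Ly6g at 0 and 2. Of 5 tested dendritic-cell genes, 4 rose and 1, Zbtb46, was called lower (-1.04). Ccr7, which T cells also express, was 242 against 169 FPKM (0.52). Of 6 tested natural killer-cell genes, 2 rose, Eomes, which activated T cells also express and which was called (1.05, adjusted p = 3.0e-04), and Klrg1 (0.99, adjusted p = 0.027).

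Gpnmb is also known from osteoclasts and pigment cells. Acp5, the only tested osteoclast gene of 5, was 44.7 against 40.8 FPKM (0.13, adjusted p = 0.017). Pmel, the only tested pigment-cell gene of 5, rose from 3.44 to 6.24 FPKM (0.84, adjusted p = 1.6e-04), while Mlana, Tyr and Tyrp1 had no reads. Of 6 fibroblast genes, 2 were tested and both fell: Dcn, a matrix proteoglycan, from 39.2 to 7.51 FPKM (-2.37), which was called, and Col1a1 (-0.72), which was not. The 2 tested erythroid genes of 4 did not pass the test.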
